A study of Mus musculus with 2 samples.

Results

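The T-box genes described here are 8 members of the family of transcription factors that share the T-box, a DNA-binding domain. They are Tbx1, Tbx2, Tbx3, Tbx4, Tbx5, Tbx15, Tbx18 and Tbx20, and were taken by gene symbol from the 43346 Ensembl genes of the deposited tables, together with their 18 transcript models. All 8 members were found in both libraries. The RNA was total RNA longer than 200 nt from hearts of B6NCrl mouse embryos at embryonic day 10.5, with males and females mixed. There was 1 group of 2 libraries: replicate 2 was made from a pool of 51 embryos and replicate 1 from a separate pool of 69 embryos, each with 10 ng of RNA and added ERCC spike-in RNAs. No genotype, treatment or other tissue was compared, so the comparisons below are between the genes, between their transcripts and between the pools, and no p-value is given. Replicate 2 held 39786163 estimated counts on mouse genes and replicate 1 held 43295923. Spike-ins took 3.13% of all counts in replicate 2 and 4.22% in replicate 1.

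T-box factors divide the developing heart tube into parts with different fates. Tbx5 and Tbx20 act with Nkx2-5 and Gata4 to switch on chamber muscle genes. Tbx2 and Tbx3 repress those genes in the atrioventricular canal, the outflow tract and the conduction system. Tbx18 is active in the sinus venosus, which feeds the atria, and in the epicardium and its precursors. Tbx1 is active in pharyngeal tissue and in the second heart field, the progenitors that extend the heart tube. Tbx4 and Tbx15 are known mainly outside the heart, Tbx4 in hindlimb and lung and Tbx15 in limb, body wall and craniofacial mesenchyme.

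Alternative splicing changes the coding sequence of Tbx3 and Tbx20, and the letters around those splice choices are shown because the transcript values below turn on them. They come from the GENCODE M21 transcripts of GRCm38, the assembly also called mm10. In Tbx3 on chromosome 5, the third exon of Tbx3-201 covers chr5:119675243-119675302 on the plus strand and is absent from Tbx3-203 and Tbx3-202. It lies in the coding sequence and is known to insert residues into the T-box. Its 60 bases, in capitals, are flanked here by 20 bases of the exons on either side:
Tbx3-201: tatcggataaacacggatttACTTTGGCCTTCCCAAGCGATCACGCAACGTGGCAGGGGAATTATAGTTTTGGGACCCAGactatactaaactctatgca
Tbx3-203: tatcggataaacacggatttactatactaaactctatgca
The exon holds 20 whole codons, so Tbx3-201 codes for 741 residues and Tbx3-203 for 721, in the same frame on both sides. In Tbx20 on chromosome 9, on the minus strand, the short model Tbx20-202 leaves the long model Tbx20-201 after the sixth exon. The short model goes on into a last exon at chr9:24740248-24740703, and the long model into its seventh exon at chr9:24727763-24727872. In both lines below the first 20 bases are the end of the shared exon, and capitals mark the stop codon that the short model reaches at once:
Tbx20-202: aggctcactgacattgagagggaaTGA
Tbx20-201: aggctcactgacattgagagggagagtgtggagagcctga
The short model codes for 297 residues and the long model for 445.

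Chamber T-box genes had the highest levels of the 8. Levels are in TPM, an abundance scaled for transcript length and library total, which allows different genes to be compared. Tbx20 (ENSMUSG00000031965), a regulator of chamber growth, had 57.86 TPM in replicate 2 and 39.0 TPM in replicate 1. That is a mean of 48.4 ± 13.3 TPM (SD, n = 2), from 8649 and 6675 estimated counts in replicates 2 and 1. Tbx20 ranked 3181 by mean TPM among the 12231 protein-coding genes that reached 1 TPM in both libraries, whose median was 19.65 TPM. Tbx5 (ENSMUSG00000018263), the gene of Holt-Oram syndrome in humans, had 31.8 TPM in replicate 2 and 29.59 TPM in replicate 1, a mean of 30.7 ± 1.56 TPM (SD, n = 2). The mean log2 ratio of Tbx20 over Tbx5 was 0.63, under the limit of 0.88 used for this pair. The limit was set from the differences between the pools of the 500 genes nearest in level to each gene, since 2 libraries cannot give an error for 1 gene. Tbx20 was above Tbx5 in both pools, but by less than that spread.

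Of the canal repressors, Tbx3 was far more abundant than Tbx2. Tbx3 (ENSMUSG00000018604) had 12.96 TPM in replicate 2 and 28.98 TPM in replicate 1, a mean of 20.97 ± 11.3 TPM (SD, n = 2). Tbx2 (ENSMUSG00000000093) had 2.11 TPM in replicate 2 and 6.34 TPM in replicate 1, a mean of 4.23 ± 2.99 TPM (SD, n = 2). Both canal genes were lower in replicate 2, and the ranges of Tbx2 and Tbx3 did not overlap. The log2 ratio of Tbx2 over Tbx3 was -2.62 in replicate 2 and -2.19 in replicate 1, a mean of -2.41 that passed its limit of 1.79. Tbx20 was 27.4-fold above Tbx2 in replicate 2 and 6.15-fold above it in replicate 1, and this pair also passed its limit.

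The distance between the chamber pair and the canal pair of T-box genes differed between the pools. Tbx5 was 2.45-fold above Tbx3 in replicate 2, but in replicate 1 the ratio was 1.02 and the 2 genes were level. The mean log2 ratio of Tbx5 over Tbx3, 0.66, did not pass its limit of 1.04, while the value of replicate 2 alone, 1.29, was past it. The chamber pair held 76.7% of the summed TPM of the 8 members in replicate 2 and 54.9% in replicate 1. The canal pair held 12.9% in replicate 2 and 28.3% in replicate 1. The sum itself was 116.89 TPM in replicate 2 and 124.97 TPM in replicate 1, so the members' total differed less than their makeup.

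Tbx18 differed little between the pools. Tbx18 (ENSMUSG00000032419) had 10.37 TPM in replicate 2 and 11.24 TPM in replicate 1, a mean of 10.8 ± 0.615 TPM (SD, n = 2), from 1302.17 and 1565.51 estimated counts in replicates 2 and 1. It held 8.87% of the members' TPM in replicate 2 and 8.99% in replicate 1. Tbx15 (ENSMUSG00000027868), its nearest relative in sequence, had 0.11 TPM in replicate 2 and 0.55 TPM in replicate 1, with 10 and 58 counts. The mean log2 ratio of Tbx18 over Tbx15 was 5.46, past its limit of 2.99.

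Pharyngeal Tbx1 and hindlimb Tbx4 were low, and were several-fold lower in replicate 2. Tbx1 (ENSMUSG00000009097), the main gene of 22q11 deletion syndrome in humans, had 1.00 TPM in replicate 2 and 5.86 TPM in replicate 1, with 46 and 299 counts. Its value in replicate 2 lay on the detection threshold of 1 TPM. Tbx4 (ENSMUSG00000000094) had 0.68 TPM in replicate 2 and 3.41 TPM in replicate 1, with 54 and 315 counts, and so reached the threshold in replicate 1 alone. Tbx20 exceeded Tbx1 by a mean log2 ratio of 4.29 (limit 1.65), and Tbx5 exceeded its close relative Tbx4 by 4.33 (limit 2.24). Tbx2 exceeded Tbx4, its neighbour on chromosome 11, by 1.26, which was under the limit of 2.68.

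**Figure D1:**
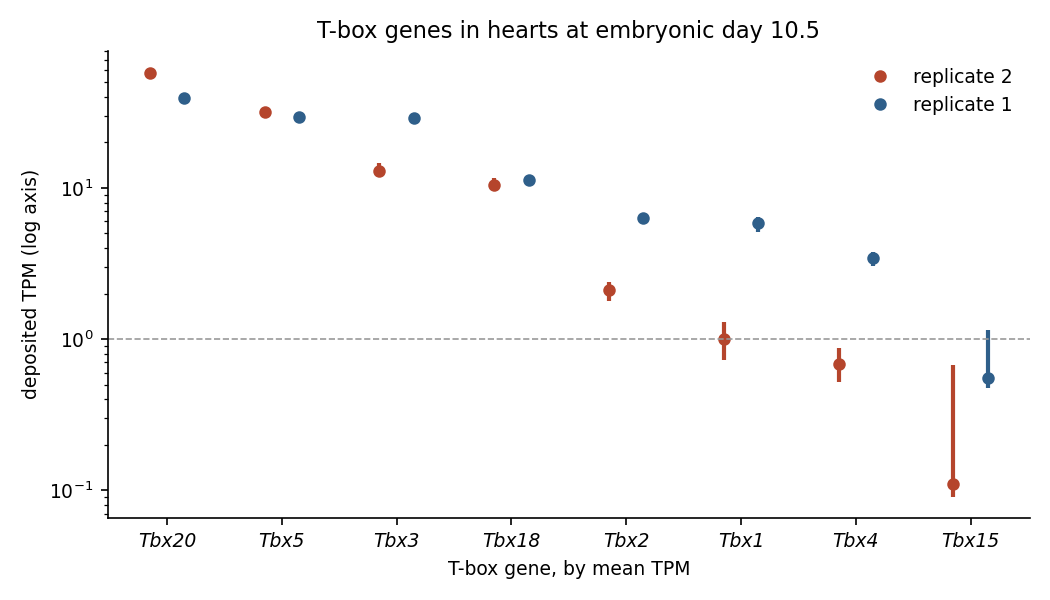
Deposited TPM (log axis) of the 8 T-box genes in replicate 2 (left point of each pair) and replicate 1 (right point); lines are the deposited credibility intervals and the dashed line marks 1 TPM. The genes fall in the same order in both pools, and Tbx1, Tbx4 and Tbx15 have the widest gaps between the pools.

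In all, 6 of the 8 members reached 1 TPM in both libraries, as did 13725 of all 43346 genes. The order Tbx20, Tbx5, Tbx3, Tbx18, Tbx2, Tbx1, Tbx4, Tbx15 was the same in both pools. Of the 7 neighbouring pairs in that order, 0 passed their limit by the mean of both pools. In replicate 2 alone Tbx18 over Tbx2, at 2.30 against a limit of 1.97, passed, as did Tbx5 over Tbx3. Of 8 pairs chosen for their relation in role, sequence or position, 5 passed.

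The pools were next compared gene by gene. To be counted as differing, a gene needed a mean count of 50 or more, a difference of at least 2-fold in scaled counts and deposited TPM intervals that did not overlap. The level of those credibility intervals is not stated. Of the members, 4 differed and were higher in replicate 1, against a background of 671 of 14124 genes, or 4.75%, that did so. None of the members was counted as higher in replicate 2, where 326 genes, or 2.31%, were. With spike-in scaling in place of the usual scaling, calls higher in replicate 2 made up 66.4% of all calls, against 32.7%, and the median of all genes moved to 0.34 (log2).

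The 4 that differed were the canal genes, Tbx1 and Tbx4. In scaled counts, the log2 ratio of replicate 2 over replicate 1 was -1.04 for Tbx3, with a 95% counting interval of -1.12 to -0.96. The ratio was -1.49 for Tbx2 (-1.72 to -1.26), -2.44 for Tbx1 (-2.93 to -2.00) and -2.29 for Tbx4 (-2.74 to -1.88). Tbx3 lay just past the 2-fold rule and was not counted under spike-in scaling, where its ratio was -0.72. These intervals cover counting error only and leave out variation between pools, since each pool gave 1 library. The common biological coefficient of variation between the pools was 0.301. Without molecular identifiers PCR copies cannot be set apart, so counting error may itself be larger than shown.

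The other members were not counted as differing. The ratio was 0.62 for Tbx20 and 0.20 for Tbx5, which were higher in replicate 2, with deposited TPM intervals that did not overlap but folds of 1.54 and 1.15. Tbx18 had a ratio of -0.02, with overlapping intervals; under spike-in scaling its ratio was 0.31, beside the median of 0.34 for all genes. Tbx15 had a ratio of -2.24 but a mean count of 34, below the minimum, and overlapping intervals. The median over the 8 members was -1.26, and over the 17547 genes with a mean count of at least 10 it was -0.005.

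**Figure D2:**
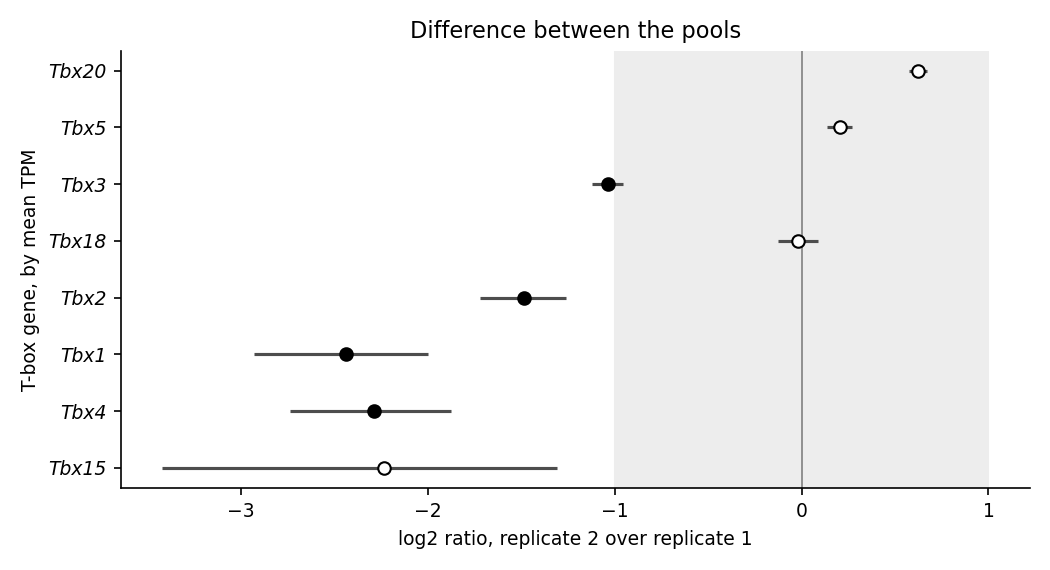
Log2 ratio of replicate 2 over replicate 1 in scaled counts for the 8 T-box genes; lines are 95% counting intervals, filled points met the rule for differing and the grey band spans less than 2-fold. Tbx20 and Tbx5 lie right of 0, Tbx18 lies at 0 and the other 5 lie left of it.

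Tissue markers also differed between the pools, in both directions. Liver primordium genes summed to 53.82 TPM in replicate 2 and 1324.06 TPM in replicate 1, and all 8 of the list differed. Afp, the fetal serum protein, had 27.61 TPM in replicate 2 and 736.66 TPM in replicate 1. Apoa2 had 13.76 and 262.02 TPM, Ambp 4.90 and 131.61 TPM, and Apoa1 3.66 and 103.11 TPM in replicates 2 and 1. Heart muscle genes summed to 41678 TPM in replicate 2 and 24839 TPM in replicate 1, were all detected and were all 12 higher in replicate 2, where 4 were counted as differing. Of the 12 genes, Actc1, cardiac actin, had 11048 TPM in replicate 2 and 6437 TPM in replicate 1. Myl7, the atrial myosin light chain, had 6877 and 5785 TPM in replicates 2 and 1. Myl2, the ventricular light chain, had 5157 TPM in replicate 2 and 2516 TPM in replicate 1, and Tnni1 had 3235 and 1905 TPM. Of the muscle genes just named, Myl2 was counted as differing and Actc1, Myl7 and Tnni1 were not. The part of such tissue differences in the T-box values was not tested, and in bulk RNA fewer cells of a type cannot be told apart from less RNA per cell.

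Known targets of the chamber factors and of the canal repressors were higher in replicate 2. All 12 listed chamber targets were detected and all 12 were higher there in scaled counts, with a median log2 ratio of 1.07, though by deposited TPM Mycn was lower, with 75.85 TPM in replicate 2 and 78.23 TPM in replicate 1; 7 of them were counted as differing, and the part of the muscle difference just described was not tested. Nppa, atrial natriuretic peptide, had 3797 TPM in replicate 2 and 2000 TPM in replicate 1. Cited1 had 700.73 TPM in replicate 2 and 311.42 TPM in replicate 1. Smpx had 525.72 and 256.43 TPM, and Nppb 261.19 and 103.49 TPM, in replicates 2 and 1.

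Partners and cofactors varied less. All 17 were detected; 3 were higher in replicate 2 and 14 in replicate 1, with a median log2 ratio of -0.16. Under spike-in scaling the median was 0.17, with 11 higher in replicate 2 and 6 in replicate 1. Over all 17547 genes with a mean count of at least 10, that scaling put 13381 higher in replicate 2 and 4166 in replicate 1. The median of these genes was 0.32, the background for the spike-in values of each list below. Nkx2-5 had 159.49 TPM in replicate 2 and 120.8 TPM in replicate 1, and Gata4, the zinc-finger partner of Tbx5, had 110.28 and 106.7 TPM. The deacetylases Hdac1 and Hdac2 had 170.6 and 137.54 TPM in replicate 2, and 197.8 and 161.41 TPM in replicate 1. The corepressor Tle1, named after its value was seen, was the 1 member of this list counted as differing, with 6.48 TPM in replicate 2 and 15.94 TPM in replicate 1.

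Genes that mark the canal and cushions had a median ratio of -0.56. Of 12 genes 11 were detected, with 2 higher in replicate 2 and 9 in replicate 1. Under spike-in scaling the median was -0.23, with 3 higher in replicate 2 and 8 in replicate 1. Tgfb2 had 45.53 TPM in replicate 2 and 57.69 TPM in replicate 1, and Msx1, a homeobox gene of the cushions, had 30.98 and 54.25 TPM. Bmp4, a ligand upstream of Tbx2 and Tbx3 in several tissues, had 27.22 TPM in replicate 2 and 55.57 TPM in replicate 1. Hey1 had 20.03 TPM in replicate 2 and 31.5 TPM in replicate 1, and Foxn4, a regulator of the canal in zebrafish, had no counts in either library. Twist1, the only one of this list that differed, was named after its value was seen and had 6.39 TPM in replicate 2 and 14.61 TPM in replicate 1.

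Sinus and pacemaker genes were mostly higher in replicate 1, with 1 higher in replicate 2 and 7 in replicate 1, and a median ratio of -0.50. Under spike-in scaling the median was -0.18, with 3 higher in replicate 2 and 5 in replicate 1. Popdc2 had 320.61 TPM in replicate 2 and 191.79 TPM in replicate 1, Gjc1, a connexin, had 48.25 and 67.49 TPM, and Podxl had 40.29 and 51.6 TPM. Bmp4, given above, is on this list and on the canal list. Shox2 and Isl1, which act in the sinus, were the 2 that differed. Shox2 was named after its value was seen, and Isl1 is also on the pharyngeal and second heart field list. Shox2 had 1.78 TPM in replicate 2 and 12.77 TPM in replicate 1, and Isl1 had 5.94 and 22.67 TPM.

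Epicardial genes, like Tbx18, differed little in the usual scaling: 4 were higher in replicate 2 and 3 in replicate 1. Their median ratio was 0.07 and 0 were counted as differing. Under spike-in scaling their median was 0.39, beside 0.32 for all genes, with 6 higher in replicate 2 and 1 in replicate 1. Upk3b had 103.39 TPM in replicate 2 and 97.8 TPM in replicate 1, and Krt19 had 73.31 and 63.96 TPM. Tcf21 had 54.04 TPM in replicate 2 and 63.35 TPM in replicate 1, and Upk1b had 35.52 and 36.22 TPM. Mesp1, which marks earlier cardiac mesoderm, was at 0.25 and 0.14 TPM in replicates 2 and 1.

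Genes around Tbx1 and Tbx4 were lower in replicate 2. Of the 13 pharyngeal and second heart field genes 9 were detected, and all 12 with a mean count of at least 10 were lower there, with a median ratio of -1.33, and 8 differed. The 8 included Isl1, given above with the sinus genes. Under spike-in scaling 3 of the 12 were higher in replicate 2. Crkl, which lies in the human 22q11 deletion with Tbx1, had 29.54 TPM in replicate 2 and 37.53 TPM in replicate 1, and Foxc2 had 10.48 and 12.29 TPM. Epcam, an epithelial surface protein, had 4.96 TPM in replicate 2 and 22.76 TPM in replicate 1. Pax9 had 0.25 TPM in replicate 2 and 0.67 TPM in replicate 1, and Gcm2, of the parathyroid, had 0.07 and 0.06 TPM. Of the 10 genes of hindlimb, lung and body wall 3 were detected, and all 10 were lower in replicate 2, with a median ratio of -2.75, and 7 differed. Prrx2 had 41.78 TPM in replicate 2 and 62.14 TPM in replicate 1, and Prrx1 had 6.70 and 16.88 TPM. Hoxa9, a posterior Hox gene, had 0.32 TPM in replicate 2 and 4.71 TPM in replicate 1, while Hoxc10 had 0.06 and 0.52 TPM and En1 0.01 and 0.47 TPM.

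**Figure D3:**
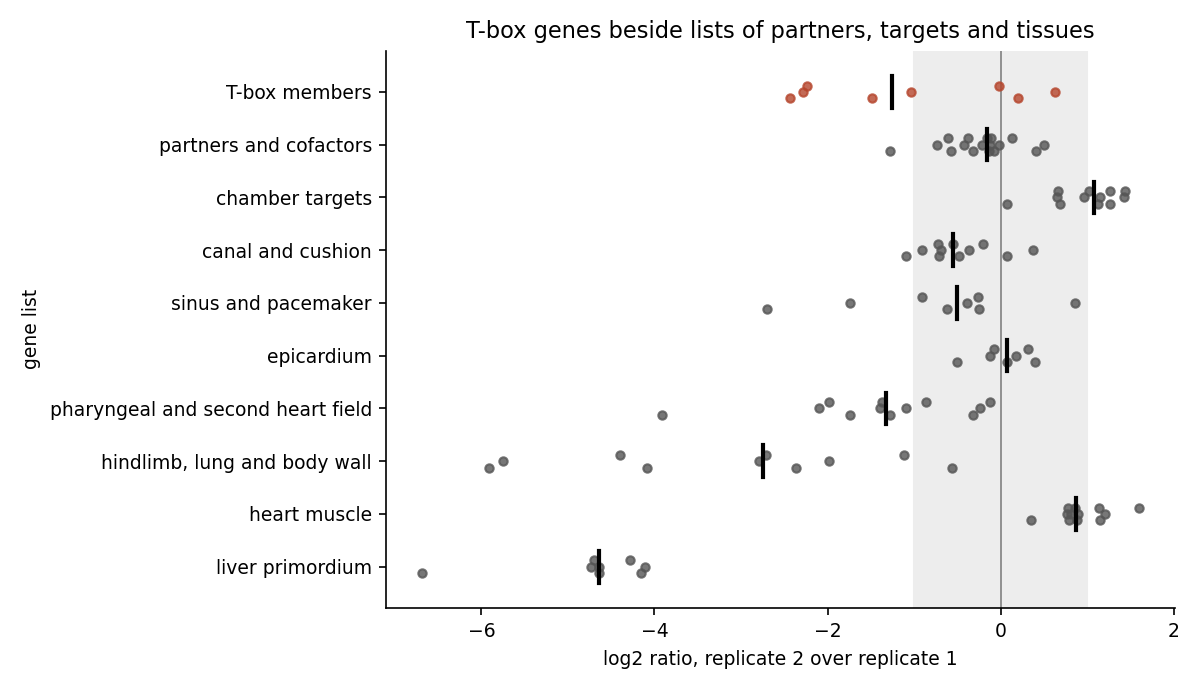
Log2 ratio of replicate 2 over replicate 1 for each gene of the T-box members and 9 lists (points; genes with a mean count of at least 10), with each list's median as a bar and less than 2-fold in grey. The epicardial median is 0.07, the chamber target median 1.07 and the liver median -4.64.

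Transcript models were then compared within each gene. The deposited percentages give each transcript's part of its gene's TPM. They are estimates, since most reads match several models of a gene. The leading model was the same in both pools for 7 of the 8 members. Tbx1, Tbx2 and Tbx5 had 1 model each, so their agreement was fixed in advance. Tbx15-201 and Tbx18-201 held all estimated TPM of their genes in both libraries. By posterior mean, Tbx15-201 held 34.3% in replicate 2, where Tbx15-203 led with 46.2%, and 69.5% in replicate 1.

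The T-box insertion exon of Tbx3 had a similar estimated share in both pools, while the gene was 2.05-fold higher in replicate 1. Tbx3-203, without the exon, held 58.2% of Tbx3 in replicate 2 and 45.2% in replicate 1. Tbx3-201, with the exon, held 40.4% in replicate 2 and 38.6% in replicate 1, from 683.78 and 1618.98 estimated counts. Tbx3-202, also without it, held 1.34% in replicate 2 and 13.8% in replicate 1. Among these 3 coding models, the share with the 60-base exon was 40.5% in replicate 2 and 39.6% in replicate 1, a mean of 40.0% ± 0.623 (SD, n = 2). The estimates themselves were wider, since the deposited interval of Tbx3-201 was 3.66 to 6.56 TPM in replicate 2 and 8.55 to 12.6 in replicate 1. By estimated counts the share was 40.8% in replicate 2 and 39.7% in replicate 1. The pools differed more in how the form without the exon was divided between Tbx3-203 and Tbx3-202, which code for the same number of bases, 2163.

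Both Tbx20 forms were found in both pools. The short form Tbx20-202 held 19.1% of Tbx20 TPM in replicate 2 and 15.3% in replicate 1, a mean of 17.2% ± 2.69 (SD, n = 2). Tbx20-201 held 80.9% in replicate 2 and 84.7% in replicate 1. The short form had 11.06 TPM in replicate 2 and 5.97 TPM in replicate 1, and its deposited intervals, 9.25 to 12.5 TPM in replicate 2 and 4.58 to 7.04 in replicate 1, did not overlap. By estimated counts the short form held only 5.94% in replicate 2 and 4.61% in replicate 1. The models are 1793 bases (short) and 6436 bases (long) in the tables, and TPM corrects for that difference. In GENCODE M21 the long model is 9091 bases, so these shares rest on the shorter annotation used for the tables.

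Tbx4 was the member whose leading model changed. Tbx4-201 held 100% of Tbx4 in replicate 2 and 2.57% in replicate 1, and Tbx4-203 held 0% in replicate 2 and 89.9% in replicate 1. All 54 estimated counts of replicate 2 were placed on Tbx4-201, while Tbx4-203 took 284.93 counts in replicate 1. The value of Tbx4-201 in replicate 2, 0.68 TPM, lay above the upper bound of its own deposited interval, 0.632 TPM. The posterior mean share of Tbx4-201 was 47.5% in replicate 2 and 19.5% in replicate 1, and that of Tbx4-203 was 31.9% and 71.4%. These models code for the same number of bases, 1656. The deposited intervals of Tbx4-201 overlapped between the pools. Those of Tbx4-203 did not: its upper bound was 0.524 TPM in replicate 2, under its lower bound of 1.43 TPM in replicate 1, for a gene that was itself 4.88-fold higher in replicate 1.

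**Figure D4:**
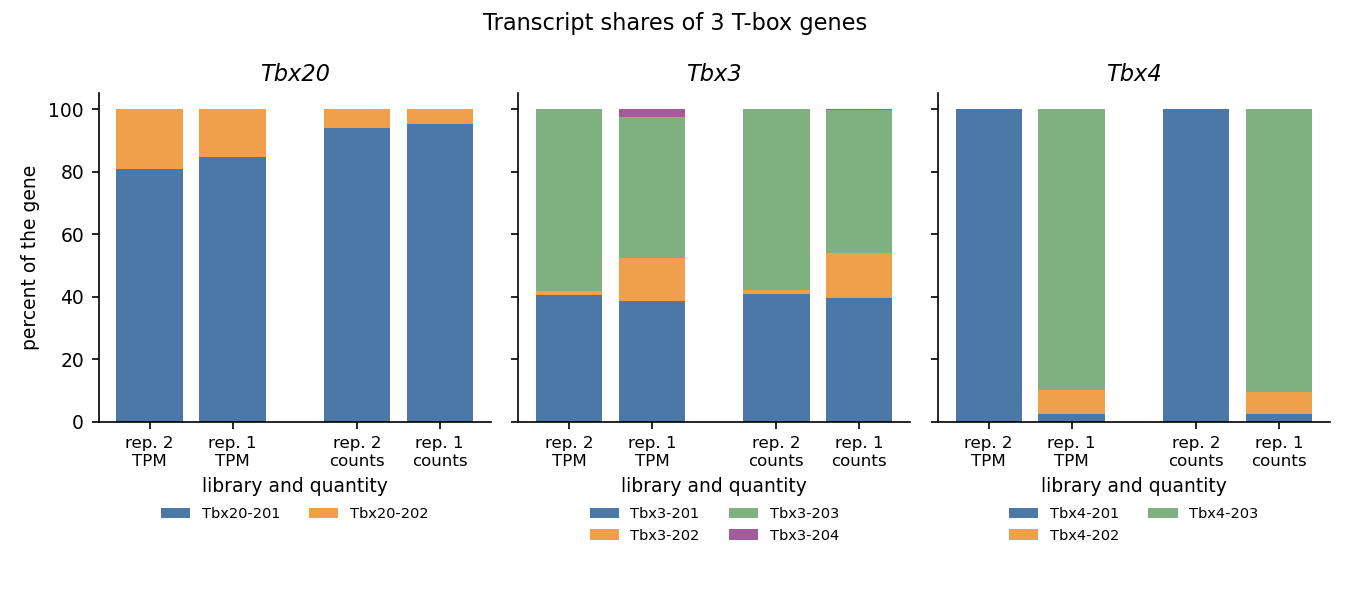
Percent of Tbx20, Tbx3 and Tbx4 held by each transcript model in replicate 2 and replicate 1 (left to right within each pair), by TPM and by estimated counts. The Tbx3-201 part stays near 40% in all 4 bars, the Tbx20-202 part is larger by TPM than by counts, and Tbx4 differs between the pools.

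Sequence relatives share part of their exon pattern. In the coding sequences of Tbx4 and Tbx5, 4 inner exon lengths are shared, 95, 120, 148 and 153 bases. Tbx15 and Tbx18 share 4, of 65, 102, 168 and 172 bases, and Tbx2 and Tbx3 share 3, of 77, 147 and 268 bases. Some of these lengths also occur in other members. Tbx1 shares 102 and 172 bases with both Tbx15 and Tbx18. Tbx18 shares 95 bases with Tbx4 and Tbx5, and Tbx20 shares 77 bases with Tbx2 and Tbx3. The Tbx3 insertion exon has no counterpart of its length in Tbx2. The longest identical coding run of any 2 members was 23 bases, reached by Tbx15 with Tbx18 and by Tbx4 with Tbx5, and these runs are shown as the longest stretches of coding sequence that members share:
Tbx15 and Tbx18: catagctctaagtggatggtggc
Tbx4 and Tbx5: cagctgaaaattgagaacaaccc
They lie at chr3:99314754-99314776 in Tbx15 and chr11:85911942-85911964 in Tbx4, both on the plus strand. The longest run shared by Tbx2 and Tbx3 was 14 bases, under the 21 bases of Tbx1 with Tbx5 and of Tbx18 with Tbx20. Over whole transcripts, untranslated parts included, the longest shared run was 32 bases, between Tbx4 and Tbx20.

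**Figure D5:**
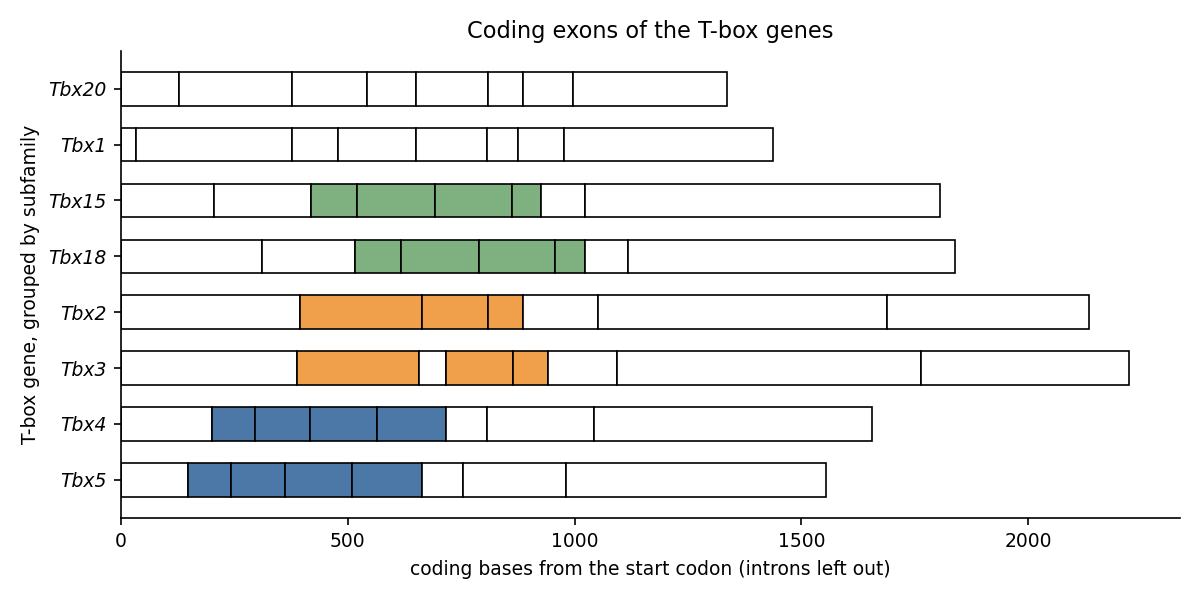
Coding exons of the 8 T-box genes to scale, with introns left out; boxes are exons from the start codon and coloured boxes are inner exons whose length is shared with the nearest relative. Tbx4 and Tbx5 share 4 lengths, Tbx15 and Tbx18 share 4, and Tbx2 and Tbx3 share 3.

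Members also lie in linked pairs. Tbx3 and Tbx5 lie 148 kb apart on chromosome 5, on the same strand, and their pool ratios were -1.04 and 0.20. Tbx2 and Tbx4 lie 44.5 kb apart on chromosome 11, and their ratios were -1.49 and -2.29. Among the genes annotated within 20 kb of a member, antisense partners that were measured had low counts. Gm43120, antisense to Tbx15 over 6588 bases, and the neighbours Gm43050 of Tbx5 and Gm29824 of Tbx20 were not among the 43346 genes measured. Tbx3os1, antisense to Tbx3 and overlapping it by 697 bases, had 2.00 counts in replicate 2 and 17.2 in replicate 1, and Tbx3os2 had 1 and 15. D030062O11Rik, antisense to Tbx18, overlaps it by 1976 bases and had 17.8 counts in replicate 2 and 22.5 in replicate 1. The use of strand in counting was not given in the sources used here; reads of overlapping genes cannot be told apart without it. 2610027K06Rik, which starts 328 bases from Tbx2 on the other strand, had 67.2 counts in replicate 2 and 126 in replicate 1. Gm16064 had 1 and 0 counts and Gm37374 had 7 and 8 in replicates 2 and 1, while Gm11444 and 4930588K23Rik had none. Of the protein-coding neighbours with counts, Bcas3 by Tbx2 had a ratio of 0.03, Gnb1l by Tbx1 -0.56 and Wars2 by Tbx15 0.65, beside ratios of -1.49 for Tbx2, -2.44 for Tbx1 and -2.24 for Tbx15.

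Of the 9 other T-box genes, Mga alone was detected. Mga, which joins a T-box to a Max-binding domain and acts in many tissues, had 20.73 TPM in replicate 2 and 19.99 TPM in replicate 1. Tbx6 and Tbx10 had 9 and 2 counts in replicate 2, and 21 and 19 in replicate 1. Eomes had 9 counts in replicate 2 and 10 in replicate 1, and T, the first T-box gene described, had 1 and 10. Tbr1 had 1 count in replicate 2 and 7 in replicate 1, Tbx22 had 1 in each, and Tbx21 had 0 and 13. Tbx19 had 0 counts in both, and a count of 0 allows up to 3 counts in a library of this depth. At these counts no comparison of the pools is made for genes other than Mga.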

How the data were processed

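Gene and transcript tables of 2 libraries were used. The labels state mm10 and annotation M4; the quantifying program was not given in the sources used here. The authors deposited expected counts (estimated reads per feature), TPM, FPKM and, for transcripts, a percent of each gene's TPM; credibility bounds, a score per feature, come from the deposited tables. Expected counts were rounded and scaled by TMM (edgeR 4.0.16, R 4.3.3), with spike-ins left out; a prior count of 0.5 was added before log2. DESeq2 1.42.0 size factors, spike-in scaling and deposited TPM were alternatives. Symbols matched 42462 of 43346 gene IDs. Sequences and positions came from GENCODE M21, in which the members have 28 models. The common biological coefficient of variation between the pools was 0.301 over 17557 genes. Scaling and the 2-fold rule, without the intervals, were tested on simulated counts. Named genes were all members and other family genes, the 4 most abundant genes of each list, up to 2 list genes under 1 TPM in both libraries, each member's 2 main transcripts and neighbours within 20 kb. The values of 1 gene that this rule names are not reported here. Members and lists were chosen with earlier results of these data known. Whether the libraries were made together is not stated, so differences between the pools may be partly technical. Tables were read with Python 3.11.15 and pandas 2.3.3.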

Additional observations from a re-analysis of the deposited data

How the results depend on the processing

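The counts of T-box genes, pairs and lists stayed within 1.5 times under each alternative run, while counts over all genes did not. Members at 1 TPM in both libraries numbered 6, and 5 to 7 under thresholds of 0.5 and 2 TPM, FPKM, posterior mean TPM or 1 library left out. Over the chosen and neighbouring pairs together, 5 passed their limit, and 5 to 7 under the alternatives, 5 without replicate 2 and 7 without replicate 1. By estimated counts not divided by length, Tbx20 over Tbx5 passed at 1.16 and Tbx18 over Tbx2 at 1.94; Tbx18 over Tbx2 also passed at 1.61 with posterior mean TPM. Members counted as differing numbered 4, and 3 under spike-in scaling, where Tbx3 was lost at -0.72. That scaling gave 860 genes higher in replicate 2 and 436 higher in replicate 1, against 326 and 671; with deposited TPM they numbered 242 and 770. The leading transcript was the same in 7 of 8 members, and in 6 by posterior mean. Both counts include Tbx1, Tbx2 and Tbx5, which had 1 model each and could not differ. Lists with a median below 0 numbered 6, 7 with deposited TPM, where the epicardial median was -0.03, and 5 under spike-in scaling, chosen for the lists after seeing the data. The hindlimb, lung and body wall median was -2.17 at a minimum mean count of 100. The causes were not tested. No paired analysis was possible because there is 1 group. Depth limits Tbx15, with a mean count of 34, and the transcript shares of Tbx4.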
